A study of Mus musculus with 15 samples.

Results

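Broad H3K4me2 domains of newborn mouse lens are long stretches of chromatin in which histone H3 carries 2 methyl groups on lysine 4. They were obtained by joining the H3K4me2 peaks of newborn lens that lie within 1 kb of each other and keeping the joined domains of at least 5000 bp. The 56214 lens peaks gave 41040 joined domains, of which 1375 (3.35%) were broad. These 1375 domains hold 4683 peaks (8.33%) and 10.1 of the 63.5 Mb of joined domain (15.9%), which is 0.384% of chromosomes 1 to 19 and X. The study asked how binding of Pax6, a transcription factor needed for eye and lens formation, relates to H3K4 methylation.

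The lens library was made from whole lenses of CD-1 mice at postnatal day 1, in which epithelium and fibre cells are mixed, so the share of cells that carry the mark and the amount per cell cannot be told apart. It was set beside αTN4 cells, a line of mouse lens epithelium that carries SV40 T antigen. These cells stably carried a lentiviral control shRNA (control) or a shRNA against Pax6 (Pax6 KD), and both were selected with puromycin. H3K4me1, H3K4me2 and H3K4me3 were measured in control and Pax6 KD cells, and Pax6 and RNA polymerase II (Pol2) in control cells. Each condition and mark has 1 sample and 1 list of called regions, of unknown depth. Peak names in the control H3K4me2 list refer to both replicates and those in the KD list do not, so the control list may rest on more libraries, which touches every difference in H3K4me2 cover given here. No difference between conditions therefore has a replicate check, no p-value is given, and each share has a 95% Wilson interval, which covers counting error alone. Neighbouring domains of 1 sample are not independent replicates. Pax6 RNA in the KD cells was not analysed here. A KD cell line from 1 shRNA also cannot be told apart from other differences between the lines.

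H3K4me1, H3K4me2 and H3K4me3 are deposited by methyltransferases of the Set1 and Mll families. H3K4me3 is concentrated at promoters of active and poised genes and H3K4me1 at enhancers, whereas H3K4me2 occurs at both and at the flanks of promoters. In many cell types, genes that set cell identity carry wide rather than narrow H3K4 methylation around their starts.

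The sequences upstream of some of the genes described here show that genes with wide marking had upstream windows both rich and poor in CpG. The 150 bp upstream of the outermost annotated start are given for the genes of the transcription factors Pax6 (chr2:105508903-105509052, plus strand) and Sox2 (chr3:34548777-34548926, plus strand), for Cryab, the small heat shock protein αB-crystallin (chr9:50560713-50560862, plus strand), and for Cryaa, the chaperone αA-crystallin (chr17:31814728-31814877, plus strand). All are from the mm9 genome, read 5′ to 3′ on the strand of the gene, and lie outside annotated exons. Capitals mark CpG.
Pax6: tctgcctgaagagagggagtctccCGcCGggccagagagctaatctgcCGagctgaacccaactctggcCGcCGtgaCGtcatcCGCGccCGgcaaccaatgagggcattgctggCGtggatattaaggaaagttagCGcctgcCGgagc
Sox2: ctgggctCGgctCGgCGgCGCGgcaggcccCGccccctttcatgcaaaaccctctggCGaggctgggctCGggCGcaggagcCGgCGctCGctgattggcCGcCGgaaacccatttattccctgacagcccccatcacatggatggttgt
Cryab: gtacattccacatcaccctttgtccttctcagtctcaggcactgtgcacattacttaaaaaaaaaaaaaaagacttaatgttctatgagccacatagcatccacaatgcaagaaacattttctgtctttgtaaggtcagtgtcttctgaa
Cryaa: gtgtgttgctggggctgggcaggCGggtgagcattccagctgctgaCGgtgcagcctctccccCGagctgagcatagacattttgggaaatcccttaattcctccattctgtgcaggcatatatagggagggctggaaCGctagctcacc
The Pax6 window holds 12 CpG and the Sox2 window 14, whereas the Cryab window holds 0 and the Cryaa window 4. Pax6, Sox2 and Cryab lie in broad lens domains and Cryaa lies in a narrower one. The Cryab domain also holds the start of a neighbouring gene, Hspb2. Over all genes with a start in a broad domain, the window held a median of 12 CpG (quartiles 6.25 and 18, 1330 windows). Genes in narrower lens domains had a median of 11 (quartiles 6 and 15) and genes outside lens domains a median of 1 (quartiles 0 and 3). Only 23 of the 1330 windows of genes in broad domains (1.73%, interval 1.16 to 2.58) held no CpG. This was close to the 1.53% of genes in narrower domains and below the 12.5% of all genes. A gene counts when any of its starts lies in a broad domain, so the window at its outermost start may lie outside that domain. By the most upstream start alone, 1228 genes were in a broad domain. Besides Cryab, these 23 include Pdgfra, the receptor for PDGF.

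MicroRNAs were a second kind of gene inside broad domains. Of 1005 RefSeq hairpins searched for in the mm9 sequence of lens domains, 36 (3.58%) lay in 30 broad domains and 172 (17.1%) in a lens domain of any width. The mature forms of those from well-known families are printed with the seed (bases 2 to 8), which pairs with target mRNAs, in capitals; sequences are from RefSeq (GRCm38.p6).
miR-9-5p: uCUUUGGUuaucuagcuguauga
miR-183-5p: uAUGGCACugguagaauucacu
miR-96-5p: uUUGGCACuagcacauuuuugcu
let-7i-5p: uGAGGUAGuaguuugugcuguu
let-7e-5p: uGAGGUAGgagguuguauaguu
miR-125a-5p: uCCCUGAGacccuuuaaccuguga
miR-125b-5p: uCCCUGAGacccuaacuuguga
let-7i and let-7e share the seed GAGGUAG, and miR-125a and miR-125b share the seed CCCUGAG. Mir9-2 lies in a 28.9 kb domain near Mef2c, 66.3% of which was covered by control H3K4me2 peaks and 62.8% by Pax6 KD peaks. Mir183 and Mir96, known from sensory cells, lie together in a 13.0 kb domain near Nrf1 with 13.4% control and 9.16% KD cover. Mirlet7i lies in a 5.82 kb domain (82.5% and 75.6%), Mirlet7e with Mir125a in a 5.88 kb domain (87.3% and 80.8%) and Mir125b-1 in an 8.41 kb domain (73.7% and 78.6%). The domains of the let-7 and miR-125 genes were thus mostly covered in αTN4 cells and that of the Mir183 cluster was mostly not. The domains of Mirlet7e with Mir125a and of Mir125b-1 also hold an annotated protein-coding start, whereas those of Mirlet7i and of Mir183 hold none. In the GENCODE annotation, 40 of 1577 microRNA genes (2.54%) lay in a broad domain. Among them, Mir124a-1 (13.1 kb domain near Kif13b) and Mir124a-3 (7.11 kb domain near Ythdf1) lie in domains with 0% cover in both lines.

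A wide marked block that holds no protein-coding start was the 5S rRNA gene cluster, whose genes encode the small RNA of the large ribosomal subunit. The cluster holds 51 annotated genes in 85.0 kb of chromosome 8, with a median of 1698 bp between starts. A broad domain of 49.5 kb, the widest of all, holds 29 of these genes and a 32.8 kb domain holds 19. Of 51 copies, 32 share 1 identical 119 bp sequence, and only 6.77% and 9.33% of the 24-base words of the 2 domains were distinct in them, against a median of 99.9% over broad domains. Reads from such copies cannot be assigned to 1 place, so these domains give the cluster as a whole. Lens peaks covered 98.5% of gene bases and 50.2% of the spacers between genes. Control H3K4me2 peaks covered 93.9% of gene and 79.5% of spacer bases and KD peaks 67.1% and 52.0%. H3K4me3 and Pol2 peaks of control cells covered 0% of both. In the H3K4me1 lists, 3 control islands over the cluster held 19.8 H3K4me1 and 14.1 input reads per kb, and 8 Pax6 KD islands held 15.1 and 8.32. The median input over all islands was 12.8 in control and 11.3 in KD. The KD islands covered less of the cluster than the control islands, so these densities come from different bases, and the part of read density in the lower H3K4me2 cover was not tested. Low fractions of distinct words were found in 5 broad domains; the others were a pair on chromosome 9 and 1 on chromosome X.

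Broad domains had a median width of 6291 bp (quartiles 5513 and 7826) and reached from 5001 to 49500 bp. Only 156 of 1375 were at least 10 kb and 19 at least 20 kb wide. Most were joined from several peaks, with a median of 3 (quartiles 2 and 4), and 151 were a single peak. A median of 90.3% of a domain lay inside lens peaks (quartiles 83.4 and 95.9), so the gaps that were bridged were a small part of the width. The highest fold enrichment in a domain, the authors' ratio of ChIP over background, had a median of 23.8 (quartiles 18.96 and 27.4) against 7.37 (4.71 and 19.4) in narrower domains. Width, peak number and fold come from the list that chose the domains and are given as a description. At the limit of 5000 bp, the domains at Cltb and at Kif18a and Mettl15 (5001 bp) and at Adamts9 (5003 bp) were just inside, and those near Cdh4 and at Eif4a2 and Map3k14 (4997 bp each) were just outside.

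Most broad domains lay over the start of a gene. A protein-coding start was inside 1163 of 1375 (84.6%, interval 82.6 to 86.4). The share was 77.2% in domains of 2 to 5 kb, 39.0% in domains of 1 to 2 kb and 4.38% below that. Where a domain held the start of 1 gene (991 domains), it reached a median of 1.41 kb upstream of the outermost start (quartiles 0.859 and 2.25) and 4.86 kb downstream (4.03 and 6.08). It was longer on the transcribed side in 898 of 991 (90.6%, interval 88.6 to 92.3), beside 91.4% of domains of 2 to 5 kb. Measured from the outermost start inside them, broad domains thus extended mainly into the gene, as narrower start domains did. For genes with several starts inside, this choice shortens the upstream part and lengthens the downstream part. Of their bases, 74.8% lay in genes and 15.1% in exons. GC content had a median of 51.5%. The ratio of observed to expected CpG had a median of 0.50 in broad domains with a start and 0.59 in those of 2 to 5 kb with a start.

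**Figure D1:**
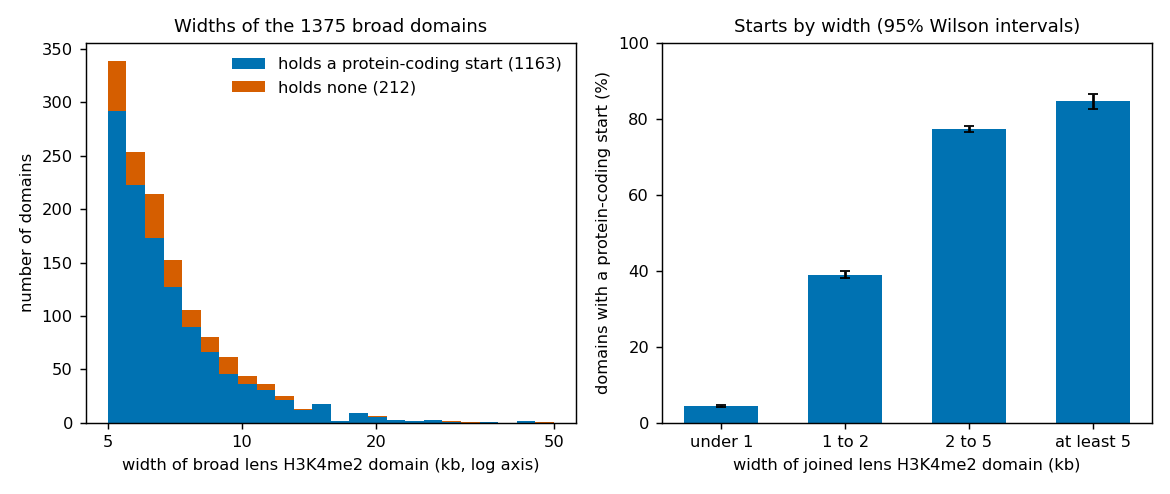
Left, number of broad lens H3K4me2 domains by width (kb, log axis), with domains that hold a protein-coding start (1163) and those that hold none (212) stacked. Right, percent of joined lens domains with a protein-coding start by width class, with 95% Wilson intervals; the share is 4.38% under 1 kb and 84.6% at 5 kb or more.

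The 212 broad domains without a protein-coding start had a median distance of 27.0 kb to the nearest one (quartiles 10.2 and 77.7), and 136 lay within 50 kb. Of these 212, 122 lay mostly inside genes and 87 wholly outside. A lincRNA or processed transcript started in 29 of them and 7 held a RefSeq microRNA hairpin. The domains of Mir124a-1, Mir124a-3 and, near Gata5, Mir1a-1 are further ones with a microRNA gene in GENCODE. One was the 13.0 kb domain of Malat1, an abundant nuclear RNA, with 82.1% control and 75.3% KD cover. Domains without a start also lay near other broad domains: 110 of 212 (51.9%, interval 45.2 to 58.5) had another within 100 kb, against 292 of 1163 (25.1%, 22.7 to 27.7) with a start. At Sox2, 4 broad domains within 100 kb summed to 45.4 kb, and 3 of them held no protein-coding start. At Pax6, the 35.6 kb gene domain and a 6.21 kb domain near Elp4, a neighbour of Pax6, summed to 41.8 kb.

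A protein-coding start in a broad lens domain was found for 1331 of 22219 genes (5.99%), while 13988 (63%) had a start in a lens domain of any width, so that 9.52% of marked genes were broad. Read against 5.99%, the share was, of the lists counted, highest in that of lens transcription factors, where 28 of 38 genes were broad (73.7%, interval 58.0 to 85.0). Notch and Wnt signalling followed with 16 of 26 (61.5%, 42.5 to 77.6) and lens epithelium genes with 9 of 17 (52.9%, 31.0 to 73.8). Fibre membrane and cytoskeleton genes had 8 of 25 (32%, 17.2 to 51.6) and reference housekeeping genes 8 of 34 (23.5%, 12.4 to 40), with intervals that overlap. Of the crystallins, the main structural proteins of the lens, 1 of 16 was broad (6.25%, 1.11 to 28.3), near the share of all genes. The lists were chosen with results of these data known, and no test of a list was made.

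**Figure D2:**
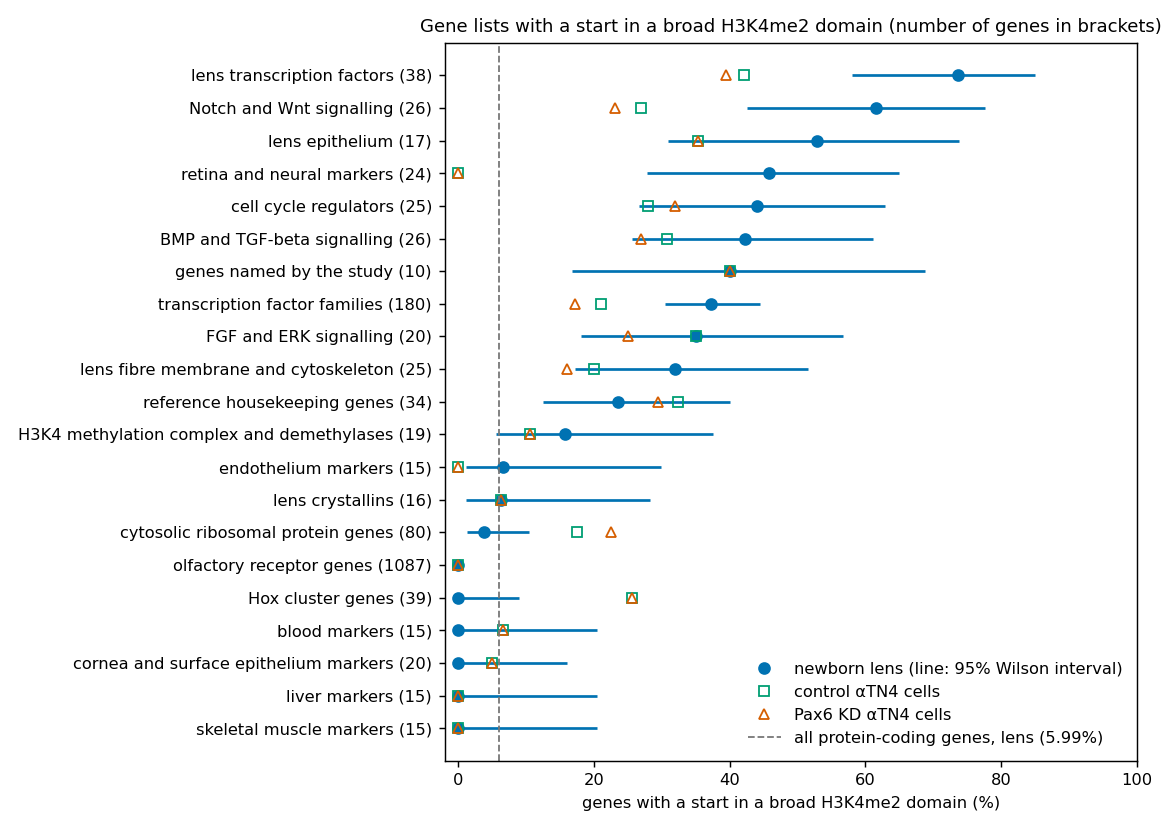
Percent of the genes of each list (number of genes in brackets) with a start in a broad H3K4me2 domain, for newborn lens (circles with 95% Wilson intervals), control (squares) and Pax6 KD αTN4 cells (triangles). The dashed line marks all protein-coding genes in lens, 5.99%; lens transcription factors reach 73.7%, and crystallins and ribosomal protein genes lie near or below the line.

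Lens transcription factors held some of the widest domains. The Pax6 domain (chr2:105498589-105534162) was 35.6 kb wide, joined from 4 peaks with a highest fold of 33.2. The domains of Sox2, a partner of Pax6 in lens induction (chr3:34544780-34571136), and Six3, a forebrain and eye regulator (chr17:86004619-86030803), were 26.4 and 26.2 kb wide. Prox1, needed for fibre cell elongation, had a domain of 18.0 kb. Others were Meis1 (17.5 kb) and Meis2 (14.8 kb), which bind upstream of Pax6, and Tcfap2a (16.8 kb). Maf, an activator of crystallin genes, had 11.1 kb and Pitx3, which is needed for lens development, 9.16 kb. Otx2, also on the list, had 14.7 kb with a highest fold of 8.95 and 0% cover in both αTN4 lines. The paper names Otx2, with Pax6, as a regulator of retinal pigmented epithelium. The part of retinal cells in the domains of this list was not tested. The median width of the 28 was 11.0 kb, beside 6.29 kb for all broad domains. The members outside broad domains included Six5 (4676 bp), Fos (4200 bp) and Zeb1 (4046 bp), which lie just under the limit, and Eya2, which had no lens domain.

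The other genes among the 20 widest domains were of several kinds. Ccdc85c, which encodes a cell junction protein, had a 44.7 kb domain, 18.0% of which was covered in control and 11.5% in KD. Beside it (chr12:109472112-109516850), and just beyond the joining distance of 1 kb, lay a 20.8 kb domain (chr12:109450109-109470896). The nearest start of this domain was that of Ccnk, and it was covered at 12.8% and 8.85%. Gse1 (30.4 kb, 43.7% and 37.1%), Cxxc5, a CpG-binding regulator of Wnt signalling (23.9 kb, 38.2% and 31.9%), and Zfp608 (21.4 kb, 42.5% and 41.3%) were covered at intermediate levels. Among transcription factors of the T-box and nuclear receptor families, Tbx2 (20.1 kb) was covered at 22.7% and 22.2% and Nr2f1 (19.4 kb) at 56.9% and 54.3%. Mllt10, a partner of the H3K79 methyltransferase Dot1l, shared a 21.4 kb domain that was covered at 74.9% and 71.0%. Mab21l2, needed for early lens growth, shared a 22.9 kb domain with Lrba that was covered at 13.4% and 10.5%.

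Of 10 genes that the study names as bound by Pax6, responsive to the knockdown or both, 4 were in broad lens domains (40%, interval 16.8 to 68.7), namely Pax6, Prox1, Zfp536 (9.18 kb) and Dhrs3, a retinal reductase named for its response (5.74 kb). The share of all protein-coding genes was 5.99%. This list was chosen on these samples and is not independent evidence. Plekha1, the gene of the study's distal enhancer, had a 3160 bp domain, covered at 83.4% in control and 80.6% in KD. Tshz2 had 3731 bp, Farp1 3408 bp and Cap2 2051 bp. In 6 of the 10 the lens marking at the start was therefore below the limit.

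Fibre and epithelium genes were mixed. Among fibre genes, the ephrin gene Efna5 (15.3 kb), the gap junction gene Gja3 (7.25 kb), the cell adhesion gene Cdh2 (7.98 kb), the beaded filament gene Bfsp2 (7.36 kb) and the intermediate filament gene Vim (5.52 kb) were broad. Hsf4, a heat shock factor of fibre cells, lay just under the limit at 4983 bp. Mip, the main water channel of fibre cells, had a 3469 bp domain, Bfsp1 2475 bp and Lim2 1108 bp, and Dnase2b, the nuclease that removes fibre cell DNA, had none. Among epithelium genes, the glucose transporter gene Slc2a1 (23.6 kb), Col4a1 and Col4a2 of the lens capsule (1 shared 10.5 kb domain), Cp (9.07 kb) and Pdgfra (8.75 kb) were broad. Foxe3, a regulator of the lens epithelium, was not, at 2639 bp.

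The crystallin genes showed narrow marking or none. Cryab was broad, in a 6.28 kb domain that also holds the start of Hspb2 and has a highest fold of 9.22. Cryaa had 3768 bp, Crybb1 2680 bp, Crygc 1912 bp, Crygd 1674 bp and Cryge 1164 bp. Cryba1, Cryba4, Crybb2, Cryga, Crygb, Crygf and Crygs had no lens domain. The lens label thus rests, among its markers, on Pax6, Prox1, Pitx3, Gja3, Bfsp2 and Cryab in broad domains and on Cryaa, Crybb1, Mip, Lim2, Bfsp1 and Foxe3 in narrower ones.

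Signalling genes with broad domains covered several pathways. The shares below are to be read beside the 5.99% of all protein-coding genes. In the Notch pathway, the receptor gene Notch1 had 21.0 kb, the ligand gene Jag1 11.3 kb and the target gene Hes1 8.95 kb. In BMP and TGF-beta signalling, 11 of 26 genes were broad (42.3%), among them the inhibitor gene Smad7 (14.8 kb) and the ligand gene Bmp7 (7.85 kb). In FGF and ERK signalling, 7 of 20 were broad (35%), among them the receptor gene Fgfr2 (13.6 kb) and the feedback inhibitor gene Spry2 (8.72 kb). Cell cycle regulators had 11 of 25 (44%), with the cyclin gene Ccnd1 at 12.6 kb and the inhibitor gene Cdkn1b, active in fibre cells that leave the cycle, at 12.4 kb. The genes of the H3K4 methylation machinery had 3 of 19: Setd1b (13.6 kb), Mll1 (8.34 kb) and Mll2 (5.93 kb). This Mll2 is the annotated gene of that symbol on chromosome 15, also called Kmt2d. Wbp7, also called Kmt2b, was counted separately and was not broad. The study gives no second name for its Mll2, so the Mll2 counted here may be a different gene.

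Markers of other tissues were counted to see what else the dissected lens might hold. Among retina and neural markers, 11 of 24 were broad (45.8%, interval 27.9 to 64.9), beside 5.99% of all protein-coding genes. The 11 are mostly transcription factors, such as Crx (12.8 kb), which drives photoreceptor genes, Neurod1 (11.7 kb), Otx1 (9.83 kb) and Nrl (6.93 kb). The defining photoreceptor genes Gnat1, Pde6b, Prph2 and Rcvrn had no lens domain. Outside the list, and named after their values were seen, the photoreceptor genes Rbp3 (6.78 kb, highest fold 7.37) and Rd3 (5.64 kb, highest fold 8.75) were broad in lens with 0% cover in both lines. Of the endothelium markers 1 of 15 was broad, the VEGF receptor gene Kdr, and of cornea, blood, skeletal muscle and liver markers 0 of 20, 15, 15 and 15 were. The part of retinal cells in these domains was not tested.

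The housekeeping genes with broad domains were Tubb5 (9.38 kb), Ywhaz (7.20 kb), Actb (6.66 kb), Ubb (6.18 kb), Pgk1 (6.09 kb), Polr2a (5.46 kb), Gapdh (5.17 kb) and Tbp (5.16 kb). All 34 genes of the list had a start in a lens domain of some width, as did 21 of 25 fibre genes and 9 of 16 crystallin genes. Of 80 cytosolic ribosomal protein genes, 75 were marked and 3 broad (3.75%, interval 1.28 to 10.5): Rpl35, Rpl7 and Rpl18. Among all protein-coding genes, 63% were marked and 5.99% broad.

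Control αTN4 H3K4me2 peaks met 1164 of 1375 broad domains (84.7%, interval 82.7 to 86.5), beside 45.8% of lens domains of any width. Pax6 KD peaks met 1150 (83.6%, 81.6 to 85.5), beside 43.8%. The part of a broad domain that was covered had a median of 57.4% in control (quartiles 24.7 and 79.7) and 52.7% in KD (21.0 and 74.98). At least 50% was covered in 787 domains in control (57.2%, 54.6 to 59.8), beside 39.8% of all lens domains, and in 731 in KD (53.2%, 50.5 to 55.8), beside 37.2%. Domains of 2 to 5 kb were met about as often but covered further, with medians of 78.1% and 72.7%. αTN4 peaks thus reached most broad lens domains and often filled only part of their width. With a protein-coding start, the median cover of broad domains was 61.4% in control and 56.7% in KD, and without one 28.7% and 23.0%.

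Broad domains were also defined in αTN4 cells by the same rule, giving 1758 in control and 1349 in KD. Of the broad lens domains, 544 (39.6%, interval 37.0 to 42.2) met a broad control domain, beside 4.73% of all lens domains, and 482 (35.1%, 32.6 to 37.6) a broad KD domain, beside 3.68%. Both were met by 468 and neither by 817. At the level of genes, 1507 (6.78%) were broad in control and 1236 (5.56%) in KD. Those broad in lens and control were 606, or 45.5% of 1331 and 40.2% of 1507, and those broad in lens but in neither line were 711.

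**Figure D3:**
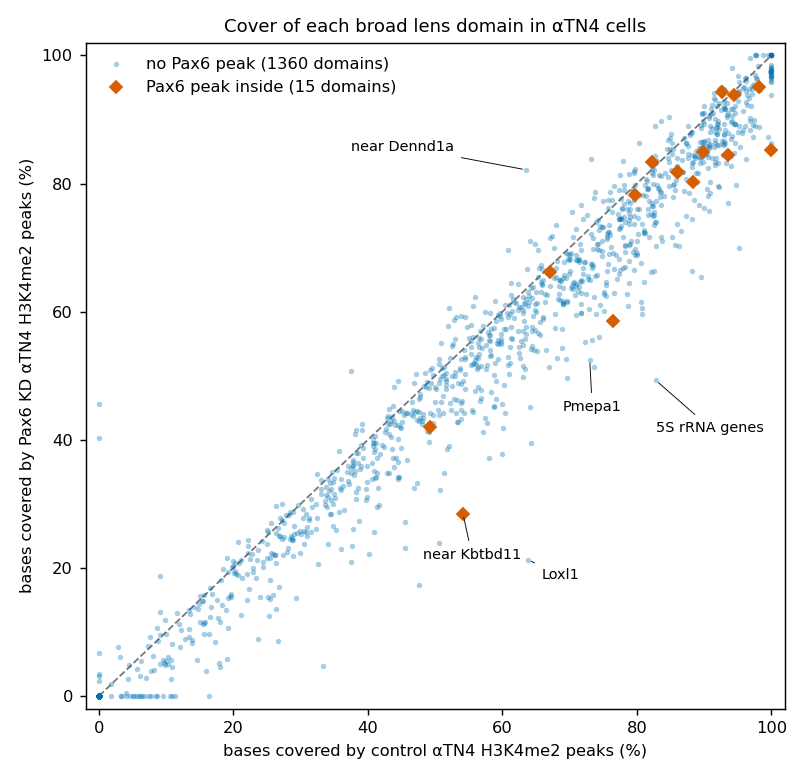
Percent of the bases of each broad lens domain covered by control (x axis) and Pax6 KD (y axis) αTN4 H3K4me2 peaks; each point is 1 domain, diamonds hold a Pax6 peak (15) and the dashed line marks equal cover. Most points lie at or just under the line; Loxl1 (63.8% and 21.3%) and the larger 5S rRNA domain (82.8% and 49.3%) lie far under it.

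The lists differed in how far αTN4 cells covered their broad domains. The domains of housekeeping genes had a median control cover of 87.1% and KD cover of 82.5%, and all 8 were at least 50% covered in control. Those of lens transcription factors had medians of 63.9% and 59.2%, those of Notch and Wnt genes 47.0% and 41.1%, those of epithelium genes 37.7% and 30.4% and those of fibre genes 33.7% and 28.5%. Those of retina and neural markers had a median of 0% in both lines, and 6 of 11 had no cover in either. Housekeeping domains were therefore the most fully covered of these and neural ones the least.

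Within the lens transcription factors the cover ran from none to nearly all. Prox1 was covered at 94.4% in control and 93.9% in KD, Tcfap2a at 93.2% and 91.7%, Maf at 93.1% and 86.4%, and Meis2 at 90.3% and 85.9%. Pax6, the gene targeted by the shRNA, was covered at 67.1% and 66.2%, Sox2 at 67.1% and 64.0% and Six3 at 58.9% and 52.1%. At least 50% of the width of each of these 7 domains was thus covered in both lines. Pitx3 was covered at 26.9% and 25.04%, and Otx2 and Sox11 at 0% in both. As joined domains, Pax6 measured 35.6 kb in lens, 23.9 kb in control and 23.5 kb in KD, and Sox2 26.4, 17.9 and 17.6 kb. Prox1 was 18.0, 17.2 and 17.2 kb, and Maf was wider in the cells, at 11.1, 15.05 and 15.1 kb.

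Among fibre and crystallin genes the cover also ran from none to all. Bfsp2 was covered at 0% in both lines and Gja3 at 29.9% and 22.3%. Vim was covered at 100% in both and Cryab at 86.9% and 81.9%. The domains of Mip, Lim2, Bfsp1, Crygc, Crygd and Cryge, which are not broad, were covered at 0%, while that of Cryaa was covered at 100% in control and 96.1% in KD. Of the epithelium genes, Cp was covered at 98.1% and 95.01%, Slc2a1 at 26.1% and 22.0% and Sfrp1, a Wnt antagonist, at 0%. Notch1 was covered at 32.2% and 30.01%, its 21.0 kb lens domain facing 4.44 kb in control and 4.07 kb in KD, whereas Hes1 was covered at 78.0% and 74.7%.

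The broad domains of housekeeping genes ran from 60.02% control and 41.8% KD cover at Ywhaz to 95.7% and 91.3% at Gapdh, a glycolytic enzyme gene. Actb, the cytoplasmic actin gene, had 83.5% and 77.9%, Pgk1 90.7% and 90.5% and Tubb5, a tubulin gene, 77.5% and 73.1%. Of the signalling genes, Fgfr2 had 88.4% and 80.2%, Spry2 79.9% and 68.8%, Smad7 79.6% and 73.8% and Jag1 73.4% and 71.5%. Bmp7, a ligand needed for lens induction, and Hey2, a Notch target, had 0% in both lines. Most of the width of the former 4 domains was thus covered in the cell line and none of the latter 2.

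Control cover under 10% was found in 254 broad domains (18.5%, interval 16.5 to 20.6), beside 54.6% of all lens domains, and 176 of these held a start. The widest of those under 10% with a start were BC057022 (26.8 kb, 4.53% in control and 4.78% in KD), Gm10742 (18.98 kb, 0% in both) and Hmx1, an eye and ear homeobox gene (16.8 kb, 1.85% and 1.87%). No H3K4me2 in either line was found in 204 broad domains (14.8%, 13.1 to 16.8), beside 53.7% of all lens domains. Zic2 (15.1 kb), Otx2 (14.7 kb) and Six6 (14.0 kb), all homeobox or zinc finger genes of eye and forebrain, and Crx (12.8 kb) had 0% in both lines. The highest lens fold was under 10 in 83 of 1375 broad domains (6.04%), of which 41 had no cover in either line, so most of the 204 had a fold of 10 or more. Otx2 (8.95), Crx (8.43) and Bfsp2 (9.87) were among the 83, whereas BC057022 (31.1), Hmx1 (27.9) and Gm10742 (25.5) had folds above the median of broad domains.

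**Figure D4:**
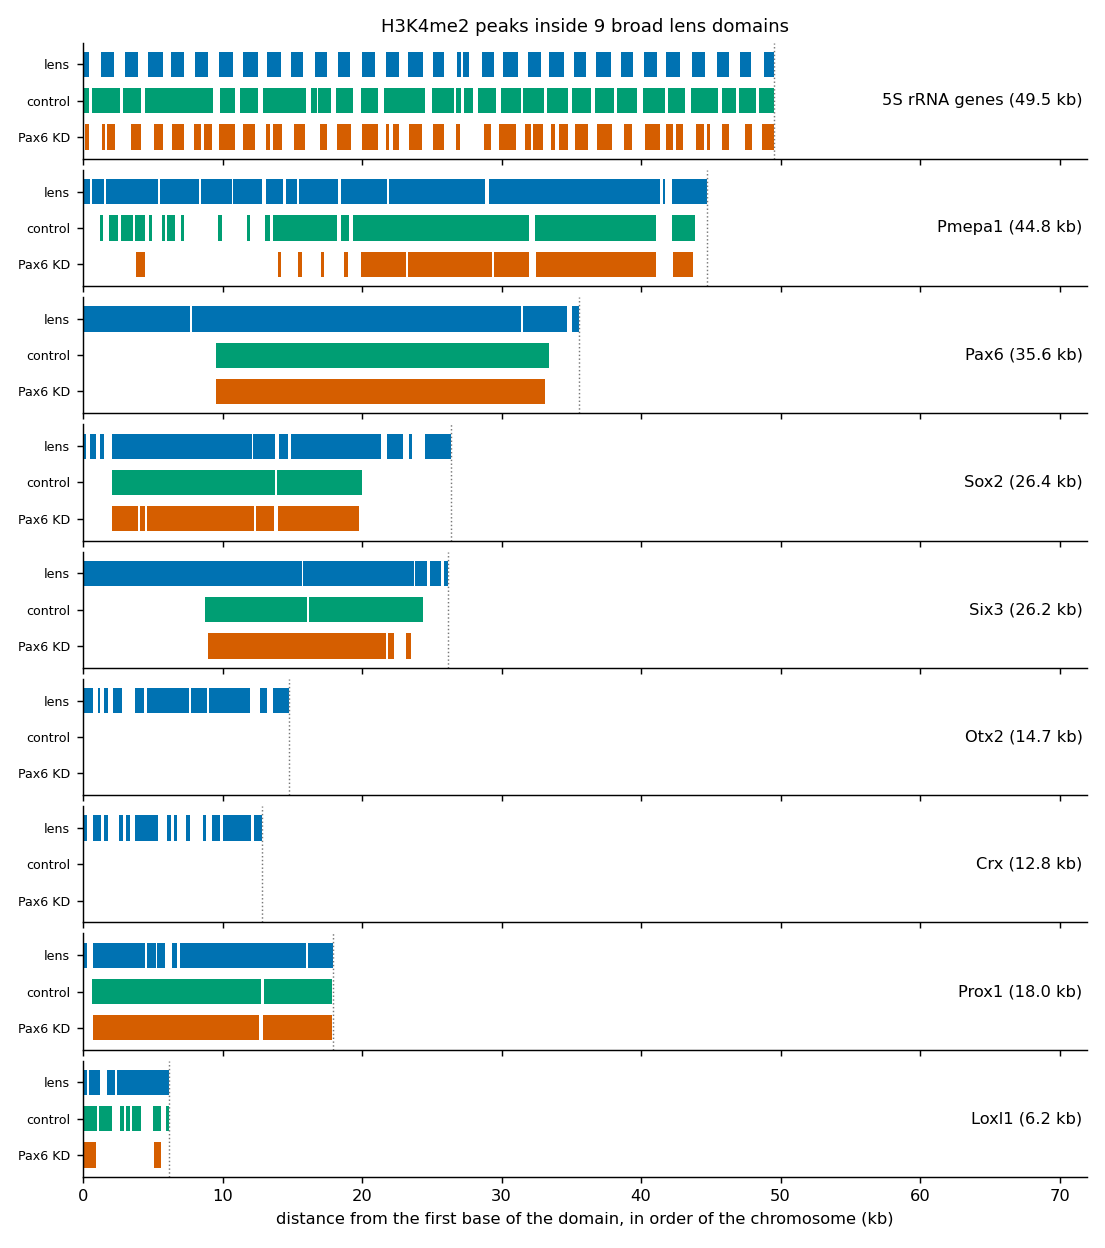
H3K4me2 peaks of newborn lens, control and Pax6 KD αTN4 cells (bars) inside 9 broad lens domains, by distance from the first base of each domain (kb); dotted lines mark its end. Pax6, Sox2 and Six3 are covered in their middle part, Prox1 nearly throughout and Otx2 and Crx not at all; the 5S rRNA domain shows a regular row of separate lens peaks.

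Cover in Pax6 KD minus cover in control had a median of -2.75 points over the broad domains (quartiles -6.27 and 0). It was lower in KD in 968 (70.4%, interval 67.9 to 72.8), beside 30.8% of all lens domains, and higher in 191 (13.9%, 12.2 to 15.8), beside 7.7%. The KD list covered less of the genome altogether (2.41% against 2.82%). In the lens peaks of narrower domains, cover was 51.8% in control and 48.1% in KD, and in those of broad domains 54.7% and 50.8%, so the shift was of like size in both. Among domains at least 50% covered in control, the median difference was -3.83 points in 787 broad domains and -3.69 in 6909 domains of 2 to 5 kb. A loss of 20 points or more occurred in 14 of these 787 (1.78%, 1.06 to 2.96) and in 159 of 6909 (2.30%, 1.97 to 2.68). A domain under 50% in KD was counted more often among the broad ones, in 62 of 787 (7.88%, 6.19 to 9.97) against 238 of 6909 (3.44%, 3.04 to 3.90). A count under 50% depends on the starting cover as well as on the size of the loss. The starting cover of the 787 and 6909 domains counted was not compared. Over all broad domains a loss of 20 points or more occurred in 17 (1.24%, 0.773 to 1.97), beside 4.77% of all lens domains. A gain of 20 points or more occurred in 2 broad domains (0.145%), beside 0.673%, both in repeated sequence on chromosome 9 and with 0% control cover. The part of library depth or number in the lower KD cover was not tested.

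Among domains at least 50% covered in control, the largest loss in points was that of Loxl1, a lysyl oxidase of elastic fibres, with 63.8% in control and 21.3% in KD. Sulf2, a heparan sulfatase that modulates growth factor signalling, had 50.5% and 23.9%, and Efnb1, an ephrin, 89.5% and 65.4%. Ehd2 (95.2% and 70.0%), Cxcr7, a chemokine receptor (88.1% and 66.3%), and a domain near Epha2 (73.6% and 51.3%) had like differences. Pmepa1, the second widest broad domain and a TGF-beta target gene, had 73.0% and 52.5%. Higher cover in KD was seen near Dennd1a (63.5% and 82.1%), at Bdnf, a neurotrophin gene (73.1% and 83.8%), and at Sema3a, an axon guidance gene (60.9% and 69.6%). These are single values of 1 list each, and the number of libraries behind the control list is not known.

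Other marks were compared at the same domains. Control H3K4me3 met 963 broad domains (70.0%, interval 67.6 to 72.4), beside 26.4% of all lens domains, with a median cover of 21.3%, and KD H3K4me3 met 930 (67.6%), beside 25.3%, with a median of 19.3%. Pol2 met 929 (67.6%), beside 27.7%, with a median cover of 12.1%. H3K4me3 and Pol2 thus lay in a small part of the width of most of these domains. Domains of 2 to 5 kb were met at nearly the same rates, 68.3% for H3K4me3 and 66.8% for Pol2. Control H3K4me1 met 895 (65.1%), beside 32.1%, and KD H3K4me1 met 555 (40.4%), beside 17.6%. In domains of 2 to 5 kb, H3K4me1 met 48.8% in control and 22.4% in KD. Fewer domains with H3K4me1 in KD were thus counted in all width classes.

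**Figure D5:**
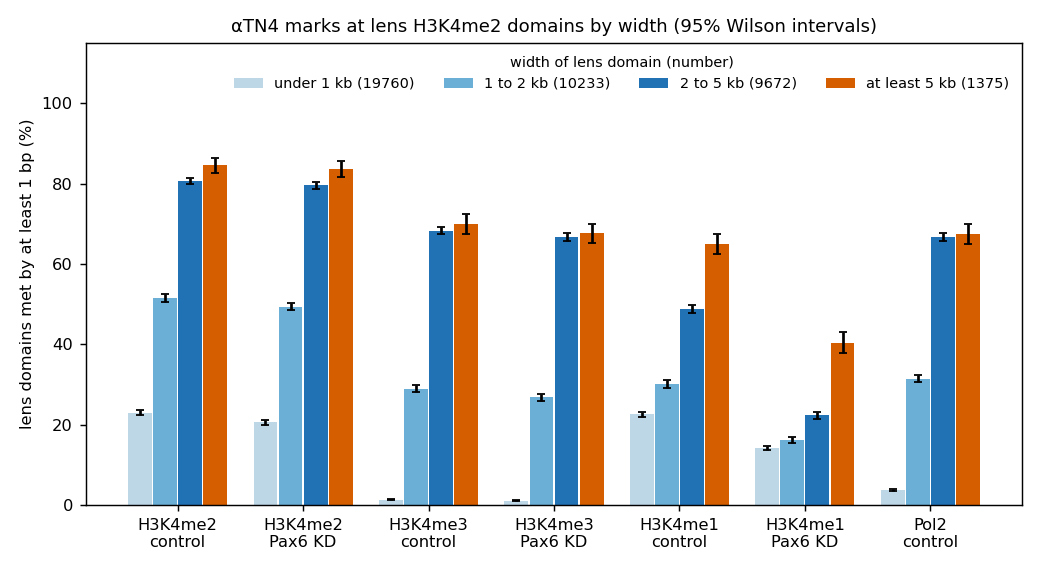
Percent of joined lens domains met by at least 1 bp of αTN4 H3K4me2, H3K4me3, H3K4me1 (control and Pax6 KD) and Pol2 (control) regions, by width class of the lens domain (number of domains in brackets), with 95% Wilson intervals. Broad domains and those of 2 to 5 kb have like shares with H3K4me3 and Pol2, and broad domains have more with H3K4me1 (65.1% against 48.8% in control).

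Pax6 peaks of control αTN4 cells were few in broad domains. They met 15 of 1375 (1.09%, interval 0.662 to 1.79), beside 0.465% of all lens domains, with 16 of 504 Pax6 peaks (3.17%, 1.96 to 5.09). Per length they were sparser than in narrow domains, at 1.58 per Mb of broad domain against 2.17 in domains of 2 to 5 kb, 3.23 in those of 1 to 2 kb and 6.78 below that. In the same order, domains with a protein-coding start had 1.29, 1.47, 1.27 and 1.68 per Mb, the last from 1 peak. Domains without a start had 3.16, 4.64, 4.66 and 7.11. The difference by width was thus mainly one among domains without a start. The 15 include the domains of Pax6, Prox1, Cp, Zfp503, Rnd3, Vcpip1 and Ctbp2 with Fgfr2, and those near Zfp536, Nr6a1, Kbtbd11 and Elp4. Their median control cover was 86.2% (quartiles 78.1 and 93.1), against 56.9% (23.9 and 79.6) without a Pax6 peak. The KD minus control difference had a median of -4.38 points (quartiles -8.67 and -1.25) in the 15 and -2.73 (-6.20 and 0) in the other 1360. H3K4me1 met 14 of the 15 in control and 10 in KD.

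The highest Pax6 −log10 q in a broad domain, 28.7, was near Kbtbd11, where H3K4me2 cover was 54.1% in control and 28.4% in KD. Near Elp4 it was 76.4% and 58.6%, at Vcpip1 93.6% and 84.4%, at Zfp503 49.3% and 42.0% and at Rnd3 92.6% and 94.3%. At Prox1, cover by H3K4me2 was 94.4% and 93.9%. Cover by H3K4me1 in control and KD was 79.1% and 100% near Kbtbd11, 100% and 96.8% near Elp4 and 0% in both at Vcpip1. It was 59.0% and 0% at Zfp503, 59.4% and 43.9% at Rnd3 and 53.9% and 12.7% at Prox1. The 100 bp around the Pax6 summits near Kbtbd11 (chr8:15003264-15003363) and at Prox1 (chr1:191983487-191983586) are printed from the plus strand of mm9 because these domains had the largest and among the smallest H3K4me2 differences of the Pax6-bound ones.
Kbtbd11 summit: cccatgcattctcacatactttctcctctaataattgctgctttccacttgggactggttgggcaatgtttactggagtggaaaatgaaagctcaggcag
Prox1 summit: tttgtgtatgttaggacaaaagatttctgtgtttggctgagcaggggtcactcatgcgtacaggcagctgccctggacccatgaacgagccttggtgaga
The letters TCACGC, part of a paired domain site, were looked for on both strands of such 100 bp windows. They were in 0 of 16 windows in broad domains (upper bound 19.4%), in 32 of all 504 Pax6 windows (6.35%, interval 4.53 to 8.83) and in 1239 of 56214 windows around lens H3K4me2 summits (2.20%). No match says only that these letters are absent from the window.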

How the data were processed

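H3K4me2 ChIP-seq of newborn lens, ChIP-seq of control αTN4 cells (Pax6, Pol2, H3K4me1, H3K4me2, H3K4me3) and of Pax6 KD αTN4 cells (the 3 H3K4 marks) were analysed from 9 deposited lists of regions, 1 sample each; RNA-seq was not analysed here. Per the study's methods, reads were aligned to mm9 with Bowtie, peaks were called with MACS2 and H3K4me1 islands with SICER; versions are not given in the sources used here. Whether libraries were pooled is not stated, but peak names of the control H3K4me2 list refer to both replicates and those of the KD list do not. One label field names the Pax6 and Pol2 antibodies the other way round, and these libraries were assigned by title. In the MACS2 lists, the deposited fold enrichment is a ratio of ChIP over local background, the deposited −log10 of p and q (lowest −log10 q in the lens list 2.02) and the deposited display score follow from it. The SICER lists hold, for each island, a deposited count of ChIP and of input reads, a fold, a p-value and an FDR, with windows of 200 bp. Folds were used only within 1 list. Peak lists give no read totals, so depth is unknown.

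Lens peaks were joined within 1 kb and domains of at least 5000 bp kept. Cover is the percent of a domain's bases inside a list's regions, and overlap means at least 1 bp. Genes are protein-coding genes of GENCODE vM1 on NCBIM37 (mm9), with older symbols matched through RefSeq synonyms. The members and lists were chosen with earlier results of these data known. Domains named are the 20 widest, list members, the 10 widest with a start and under 10% control cover, the 10 with the largest loss and the 5 with the largest gain in KD among those at least 50% covered in control, the 10 with the highest Pax6 −log10 q, and 3 on each side of the width limit. Repeated sequence, microRNAs, CpG windows, the Pax6 letters, neighbours and low-fold domains were added after the values were seen, and so were the names drawn from them. Some list members are not reported here. Scripts were tested on simulated data. Alternatives covered joining distance, width, peak strength, start definition and overlap. Python 3.11.15, NumPy 2.4.6, pandas 2.3.3, pysam 0.24.0, matplotlib 3.10.9 and samtools 1.23.1 were used.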

Additional observations from a re-analysis of the deposited data

How the results depend on the processing

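The results rest on 1 list per condition and mark and on called regions, so a domain without a peak is one without a call, and neither depth nor replicate spread can be weighed. No paired analysis was possible because each condition and mark has 1 sample. Of 118 values recomputed under alternatives, 65 stayed within the Wilson interval of the reported share or within 1.5 times the reported count and 53 did not; 0 changed direction.

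Shares are given in the order: with a start (84.6%), at least 50% covered in control (57.2%) and KD (53.2%), lower in KD (70.4%), meeting a broad control (39.6%) and KD (35.1%) domain, then meeting H3K4me3 in control (70.0%) and KD (67.6%), H3K4me1 in control (65.1%) and KD (40.4%), Pol2 (67.6%) and Pax6 (1.09%). Only values that moved are given. With a smallest width of 4000 bp there were 2574 domains and 2458 genes, with 62.0% and 58.3% covered, 29.2% and 24.6% meeting broad domains, and 61.0% and 34.6% meeting H3K4me1. With 7500 bp there were 388 domains and 370 genes, with 48.2% and 44.3% covered, 75% lower in KD, 46.1% and 42.3% meeting broad domains, 68.0% and 48.5% meeting H3K4me1 and 1.80% Pax6. With 10000 bp there were 156 domains and 159 genes, and the shares were 87.8%, 51.3%, 45.5%, 84.0%, 55.8%, 51.9%, 72.4%, 72.4%, 76.9%, 56.4%, 73.1% and 3.85%. Joining within 500 bp gave 56.1% covered in KD and 42.4% and 37.7% meeting broad domains. Joining within 2 kb gave 79.1% with a start, 51.0% and 46.2% covered, 33.9% and 29.4% meeting broad domains, 65.9% and 63.8% meeting H3K4me3 and 64.5% Pol2. Lens peaks of fold 5 or more gave 87.0% with a start, 60.7% and 57.9% covered, 72.8% lower in KD, 43.7% and 39.0% meeting broad domains and 73.4% and 71.2% meeting H3K4me3. Counting domains met by 1 bp in place of 50% covered gave 84.7% and 83.6%. Peaks of −log10 q of 5 or more, other definitions of a start, and leaving out the 5 domains of repeated sequence, an alternative chosen after seeing the data, moved none of the values recomputed under them.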

Other observations

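Gene families outside the lens lists showed other patterns of broad marking. Of all protein-coding genes, 5.99% were broad in lens, 6.78% in control and 5.56% in KD, and 63% had a start in a lens domain of any width. Of 39 Hox cluster genes, which pattern the trunk, 0 had a start in a broad lens domain (upper bound 8.97%) and 13 had one in a lens domain of any width, whereas 10 were broad in control and 10 in Pax6 KD αTN4 cells. Of 80 ribosomal protein genes, 3 were broad in lens, 14 in control and 18 in KD. Of 1087 olfactory receptor genes, 0 were broad in lens (upper bound 0.352%) and 1 was marked at all. Of 180 genes of Sox, Fox and other transcription factor families, 67 were broad in lens (37.2%, interval 30.5 to 44.5), 38 in control and 31 in KD. Whether lens and αTN4 cells differ in these counts was not tested, since each has 1 list.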
